A study of Sus scrofa with 4 samples.

Results

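miR-7 is a short RNA of the nervous and endocrine systems, and its level was followed through 4 small RNA libraries of the piglet hippocampus. Its members were found by name: the row of miR-7 in the table of annotated pig miRNAs (1 of 326 rows), and all rows of family mir-7 in the table of conserved miRNA sequences (23 of 2791 rows). That makes 24 of 3117 rows. miR-7 was chosen by its measured CPM in these libraries: with iron it had been seen to be lower in ventral and higher in dorsal hippocampus. The levels of the annotated row are therefore given as a description, with no test.

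The animals were 8 wild-type littermates of the Rongchang breed, 4 females and 4 males, shared out equally between control and treatment. To bring about oxidative stress, iron dextran (iron bound to a sugar polymer) was given into muscle at 200 mg on days 3 and 4 of life. Control piglets are labelled as having received no injection. Ventral and dorsal hippocampus of either treatment make 4 groups, each a single pooled library, and the labels do not say how many piglets entered a pool. The spread between piglets was thus not measured, and the intervals below cover counting error only and compare libraries, not conditions. Both regions of a treatment come from its group of 4 piglets, but the labels do not say whether the same ones entered both pools. Ventral and dorsal comparisons with a common library share it.

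A miRNA is cut from a hairpin precursor whose 5′ arm (5p) and 3′ arm (3p) can each give a mature strand. The mature strand guides an Argonaute protein to messenger RNAs that pair with its seed, the bases 2 to 8 from its 5′ end. miR-7 is conserved from worms and flies to mammals, is made mostly from the 5p arm, and is abundant in neurons and in hormone-secreting cells. Known targets include the messenger RNAs of alpha-synuclein and of the epidermal growth factor receptor. In the mammalian brain the circular RNA CDR1as carries many miR-7 sites and is itself cut with the help of miR-671, and the long RNA Cyrano pairs extensively with miR-7 and directs its decay. CDR1as, Cyrano and messenger RNAs were not analysed here.

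The sequences that carry the results are shown first, since the rows of the family differ mainly in their 3′ ends. Each is named after the species of the reference sequence to which pig reads were assigned, and capitals mark the seed. The first is the annotated pig sequence of 24 bases, followed by the shorter forms of 23, 22 and 21 bases, a form with an extra first base, a mismatched form, and the 3p strand.
ssc-miR-7: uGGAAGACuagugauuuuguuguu
dme-miR-7-5p: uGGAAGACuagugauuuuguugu
gga-miR-7: uGGAAGACuagugauuuuguug
ggo-miR-7: uGGAAGACuagugauuuuguu
efu-miR-7a: cUGGAAGAcuagugauuuuguuguu
cgr-miR-7b: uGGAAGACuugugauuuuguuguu
hsa-miR-7-1-3p: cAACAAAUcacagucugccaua
The seed GGAAGAC stands in 14 of the 15 rows of the 5p arm. The extra C at the start of efu-miR-7a moves its seed by a base, to UGGAAGA. cgr-miR-7b differs from the pig sequence by A10U, counted from 1 at the 5′ end of the pig sequence, and is the form known in rodents as miR-7b. The annotated row lists 2 precursors, mir-7-1 and mir-7-2. In RefSeq's annotation of Sscrofa 11.1, which is not the build of the files, MIR7-2 lies inside HNRNPK, a gene for an RNA-binding protein, and MIR7-1 lies in no gene, between AEN and DET1.

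miR-7 was among the 8 most abundant annotated miRNAs of all 4 libraries. The annotated row held 720726 reads in the ventral and 448407 in the dorsal control library, and 353889 in the ventral and 559768 in the dorsal iron library. These were 5.21% (exact binomial 95% interval 5.20% to 5.22%), 3.71% (3.69% to 3.72%), 2.88% (2.87% to 2.89%) and 4.91% (4.90% to 4.92%) of the annotated miRNA reads. Control ventral and iron dorsal were thus the high libraries, and control dorsal and iron ventral the low ones.

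Read counts per 1e+06 reads (CPM) after scaling with edgeR's TMM method give the same picture. The level was 49733 CPM in control ventral (exact Poisson 95% interval 49618 to 49848) and 36339 CPM in control dorsal (36233 to 36446). It was 28702 CPM in iron ventral (28607 to 28797) and 52574 CPM in iron dorsal hippocampus (52436 to 52712). From low to high the order was iron ventral, control dorsal, control ventral, iron dorsal, and no neighbouring intervals overlapped. The order of the upper pair rests on the scaling: iron dorsal stood above control ventral by 0.08 on the log2 scale with TMM, and below it (-0.08) when libraries were scaled by their total annotated reads. Across the 4 libraries the mean was 41837 CPM with an SD of 11260, or 26.9% of the mean, and the highest library was 1.83 times the lowest.

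The place of miR-7 among its neighbours moved with its level. It ranked 4th in control ventral and in iron dorsal, 5th in control dorsal and 8th in iron ventral hippocampus. In control ventral it lay between miR-30e-5p (51342 CPM) and the neuronal miR-124a (40373 CPM). In control dorsal it had fallen below miR-124a (40449 CPM) and lay above miR-100 (34496 CPM). In iron ventral miR-181a (32169 CPM), a miRNA of neurons and lymphocytes, stood above it and miR-26a (28397 CPM) below, and in iron dorsal miR-30e-5p (71692 CPM) and miR-30a-5p (44134 CPM) framed it. Reads of different miRNAs are compared here without correction for how readily each sequence enters a library.

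**Figure D1:**
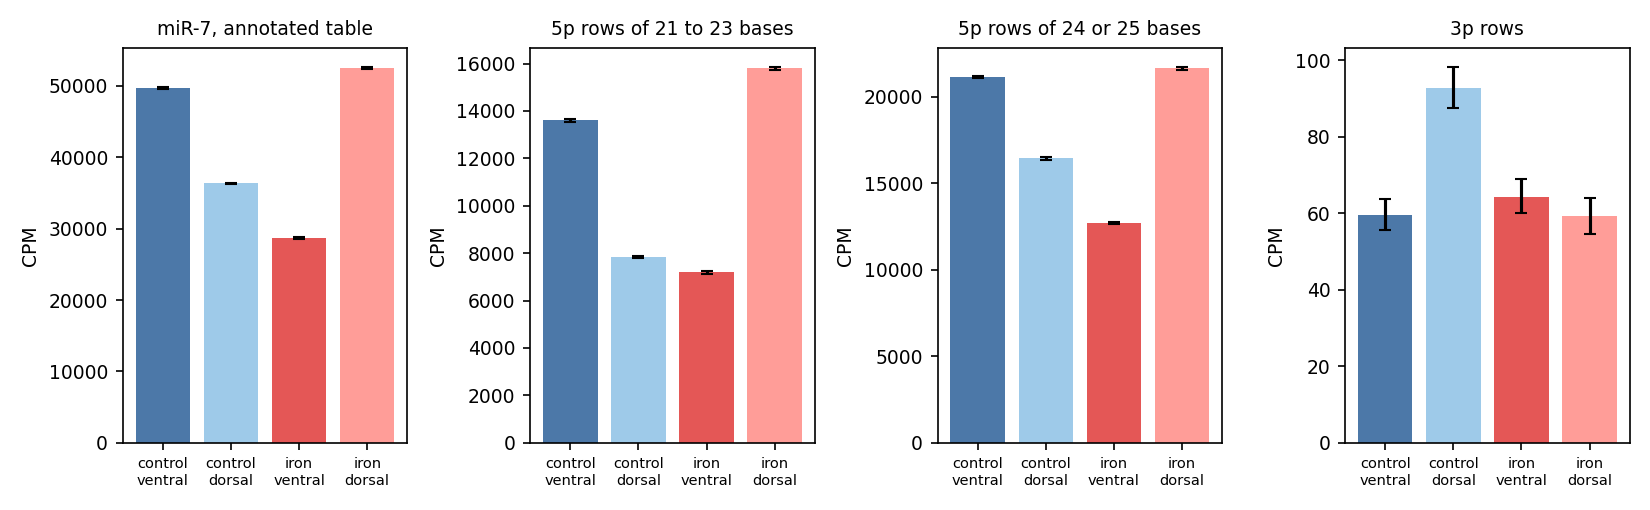
CPM of miR-7 in the 4 libraries (bars, from 0) with exact Poisson 95% intervals (counting error only), for the annotated row, the 5p rows of 21 to 23 bases, the 5p rows of 24 or 25 bases, and the 3p rows. The annotated row and both 5p panels are high in control ventral and iron dorsal; the 3p rows are highest in control dorsal, at 92.8 CPM.

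Iron against control is the study's own question, put to each region. In the ventral hippocampus the iron library held 0.577 times the miR-7 of the control library (interval 0.575 to 0.579), a level 1.73-fold lower. In the dorsal hippocampus the iron library held 1.45 times the control level (1.44 to 1.45). On the log2 scale these are -0.79 and 0.53, a difference of 1.33 between the regions, where the median of all 251 measured miRNAs was 0.00 in the ventral and -0.02 in the dorsal comparison. Measured means a level of 10 CPM or more in 1 library or more. A miRNA was counted as different at a ratio of 1.5-fold or more with an interval excluding 1, which held for 5.58% of measured miRNAs in the ventral and 9.56% in the dorsal comparison. miR-7 passes that mark in the ventral comparison and falls short of it in the dorsal one. The dorsal call depends on the table: the mir-7 family of the conserved table, described below, had a ratio of 1.501 (1.495 to 1.508) there, just past the mark. The iron log2 ratios of the regions lay 2-fold or more apart in 4.38% of measured miRNAs, miR-7 among them. Since these contrasts chose miR-7, nothing is read from the counts.

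Dorsal against ventral is the other axis of the design. In control piglets miR-7 was 1.37-fold lower in the dorsal library (ratio 0.731, 0.728 to 0.734; log2 -0.45), where 6.77% of measured miRNAs differed by 1.5-fold. In iron piglets it was 1.83-fold higher in the dorsal library (1.82 to 1.84; log2 0.87), where 8.37% did. These are the same 4 values as in the iron comparisons, read across the other axis.

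**Figure D2:**
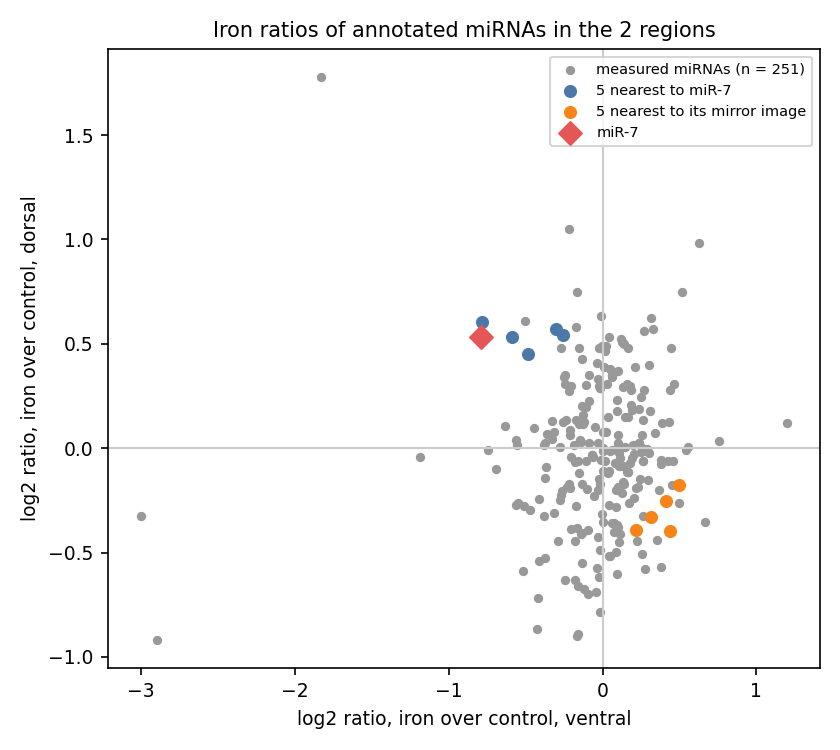
Log2 ratio of iron over control CPM in the ventral (x) and dorsal (y) hippocampus for 251 measured annotated miRNAs, 1 point each. miR-7 (diamond) lies at -0.79 and 0.53, with its 5 nearest miRNAs by profile (blue) in the same quadrant and the 5 nearest to its mirror image (orange) in the opposite one.

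The 23 rows of the conserved table resolve miR-7 by arm and length. They are made from the same reads as the annotated row and are no second measurement of its level, and their CPM were scaled separately. Their sum was 81.5% to 83.5% of the annotated row's reads. The 5p arm had 15 rows and the 3p arm 8. At 10 CPM in at least 1 library 11 rows of the 5p arm and 2 of the 3p arm were measured, and the other 10 rows lay below. Reads of near-identical sequences were divided between rows: 9 to 14 of the 23 rows per library shared their decimals, to 5 places, with another row. A row is therefore a share of reads that fit it, not a count of exact molecules, and this holds most for rows that differ only at their ends.

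The 11 measured 5p rows had the directions of the annotated row. In the ventral hippocampus their iron-to-control ratios ran from 0.492 to 0.609. In the dorsal hippocampus the ratios ran from 1.31 to 2.09. The rows draw on common reads, those by which miR-7 was chosen, so nothing is read from the shared direction. The spread between rows was wider in the dorsal comparison.

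Rows of 21 to 23 bases were at the upper end of that dorsal range, with the mismatched 24-base row cgr-miR-7b (2.09). By its mean over the 4 libraries the most abundant row was the 23-base form, dme-miR-7-5p, though in control dorsal 4 longer rows stood above it. It had 7681 CPM in the ventral and 4327 in the dorsal control library, and 4090 in the ventral and 9009 in the dorsal iron library. The 3 rows of 21 to 23 bases summed to 13609, 7830, 7186 and 15797 CPM in the same order of libraries. Their iron-to-control ratio was 0.528 (0.524 to 0.532) in the ventral and 2.02 (2.002 to 2.03) in the dorsal hippocampus. The 4 rows of 24 or 25 bases summed to 21150, 16441, 12692 and 21660 CPM. For these the ratio was 0.600 (0.596 to 0.604) in the ventral and 1.32 (1.31 to 1.33) in the dorsal hippocampus. Both length classes thus had the pattern of the annotated row, and the shorter class varied more. Since reads were divided between near-identical rows, these are classes of rows and no measure of the length of molecules.

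The share of shorter rows within the family was also highest in iron dorsal and control ventral, but it was lowest in control dorsal and not in iron ventral. Rows of 21 to 23 bases made up 33.0% of family reads in the ventral and 26.6% in the dorsal control library, and 30.1% in the ventral and 35.8% in the dorsal iron library. Other miRNA families shifted in the same way. Pairs of conserved rows at 100 CPM or more that differ by a single U at the 3′ end gave 93 comparisons in 44 other families. The shorter row gained on the longer in 86 of 93 pairs from control dorsal to iron dorsal, and was relatively higher in control ventral than in control dorsal in 85 of 93. From control ventral to iron ventral it lost in 78 of 93, and in iron ventral it was still higher than in control dorsal in 82 of 93. The pairs are not 93 separate observations, since some share a row and reads of near-identical rows were divided. Some had almost no range, such as bfl-miR-100-5p over asu-miR-100a-5p (0.00045 on the log2 scale), and were counted by sign alone. For miR-7 the 23-base row over the 24-base row was 1.19 in ventral and 0.854 in dorsal control, and 1.04 in ventral and 1.36 in dorsal iron hippocampus. The range of this pair over the libraries was 0.67 on the log2 scale, against a median of 0.36 for the 93 pairs. Of these 93, 9 were as wide, and the median includes the pairs with almost no range. Other miR-7 pairs varied less: 0.10 for the 22-base over the 23-base row, and 0.0031 for the 24-base row over that with a further U. The 22-base over 23-base pair ran the other way, highest in control dorsal (0.067, centred log2) and lowest in iron dorsal (-0.037). In both regions the shorter rows of most pairs in other families thus moved with iron in the direction of the miR-7 level. Their part in it was not tested. Over all 4 libraries the orders differed. The shorter rows were relatively lowest in control dorsal (median of pairs in other families -0.18, centred log2). miR-7 was lowest in iron ventral, where that median was -0.02.

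The remaining 5p rows held little or cannot be read alone. efu-miR-7a, with the shifted seed, was given 6286, 4922, 3804 and 6450 CPM, close to the annotated 24-base sequence in the same table (6454, 5067, 3922 and 6648 CPM). Many of its reads may fit both, and the rule for dividing reads was not given. Its level is therefore not read as a measure of molecules with the extra base. The 7 rows with an internal mismatch held 0.423%, 0.395%, 0.392% and 0.402% of the family's reads, in the same order of libraries. The largest, asu-miR-7-5p (A10G), reached 121 CPM, and the miR-7b form cgr-miR-7b reached 19.0 CPM. The share of mismatched rows was nearly level while the family's total moved. Outside the family, sme-miR-7d-5p, a flatworm sequence with G13A and the same seed, was given 540, 347, 303 and 577 reads, again with the high and low libraries of miR-7.

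**Figure D3:**
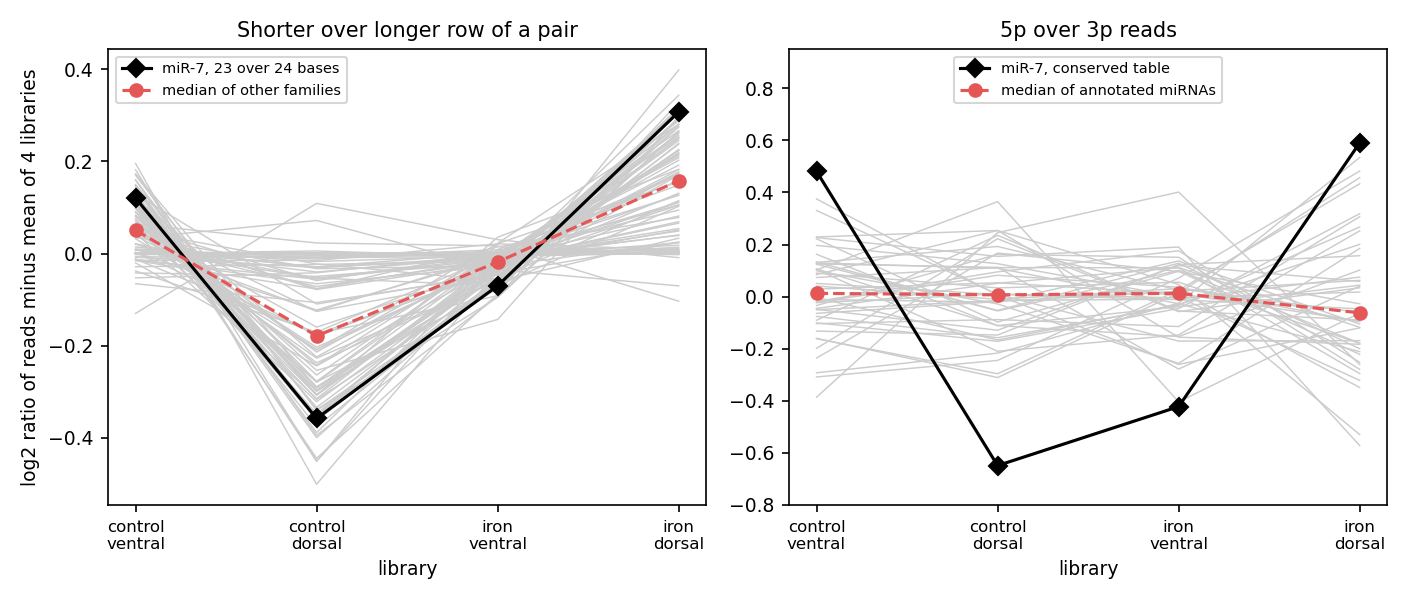
Log2 ratio of reads in each library, centred on its mean over the 4 libraries. Left, shorter over longer row for pairs that differ by a 3′ U, with miR-7 in black, the 93 pairs of other families in grey and their median in red; right, 5p over 3p reads for miR-7 (black), 44 annotated miRNAs (grey) and their median (red). On the left miR-7 follows the direction of the median with a range of 0.67, and on the right its range of 1.24 is wider than that of each other pair. Part of the latter range comes from the 5p reads that chose miR-7, and the 44 were read from the annotated table, so nothing is read from its place.

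The 3p strand did not follow the 5p strand. The 8 rows of the 3p arm held 862 reads in the ventral and 1153 in the dorsal control library, and 785 in the ventral and 626 in the dorsal iron library. This equals 59.6 (55.7 to 63.7), 92.8 (87.5 to 98.3), 64.3 (59.9 to 69.0) and 59.1 CPM (54.6 to 63.9). Control dorsal was high and the other libraries were close together. The main row was hsa-miR-7-1-3p, named after a human hairpin, while mmu-miR-7a-2-3p, named after another hairpin in the mouse, was given 0.5 reads in control ventral and none elsewhere. Hairpin numbers need not match between species, so these reads are not assigned to either pig hairpin.

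Iron against control was 1.08 for the 3p arm in the ventral hippocampus, with an interval that includes 1 (0.978 to 1.19). In the dorsal hippocampus it was 0.637 (0.577 to 0.703), the opposite direction to the 5p arm, which stood at 1.504 (1.498 to 1.51). Dorsal against ventral was 1.56 (1.42 to 1.70) in control and 0.919 (0.826 to 1.02) in iron piglets for the 3p arm, and 0.711 and 1.85 for the 5p arm. The 3p strand thus differed from the 5p strand in all 4 comparisons, in each by intervals that did not overlap.

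The 5p strand outnumbered the 3p strand 691 to 1 in ventral and 316 to 1 in dorsal control, and 370 to 1 in ventral and 746 to 1 in dorsal iron hippocampus. These are ratios of counted rows: both precursors are listed for miR-7, and a pig 3p strand with no matching conserved sequence would go uncounted. Whether use of the hairpins differed between libraries was not tested. On the log2 scale the ratio of 5p to 3p reads was lower by 0.90 with iron in the ventral hippocampus (iron minus control, -0.90) and higher by 1.24 in the dorsal hippocampus. Among 44 annotated miRNAs with both arms at hand, 0 had a range over the libraries as wide as 1.24. Their median range was 0.41 and the widest was 0.83. The 44 were read from the annotated table and miR-7 from the conserved one, and part of miR-7's range comes from the 5p reads that chose it. In the ventral hippocampus the iron log2 ratio was -0.79 for the 5p arm and 0.11 for the 3p arm. In the dorsal hippocampus these were 0.59 and -0.65. Nothing is therefore read from the place of miR-7 among the 44. With no replicate library, this comparison carries no p-value.

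The miRNAs whose profile lay nearest to miR-7 were sought among 176 annotated miRNAs with a mean of at least 100 CPM. Likeness was the root mean square difference of log2 CPM over the 4 libraries, each profile centred on its mean, and 4 points allow many chance likenesses. The nearest was miR-7857-3p, at a distance of 0.029 against a median of 0.38. Its levels were 120 CPM in ventral and 87.6 in dorsal control, and 69.8 in ventral and 133 in dorsal iron hippocampus, the same order as miR-7 at a far lower level. Its sequence holds another seed.
ssc-miR-7857-3p: aUUGUUCUccaaccuggcucuu
Next came miR-708-5p at 0.094, miR-504 at 0.17, and miR-105-1 and miR-362 at 0.19 each. miR-708-5p had 753, 544, 501 and 786 CPM in that order, and the other 3 varied less than miR-7. A flat profile would lie 0.35 from miR-7.

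The opposite profile was led by an oligodendrocyte miRNA. The 5 miRNAs nearest to the mirror image of miR-7 were miR-219b-3p at 0.13, miR-181b at 0.16, miR-338 at 0.17, miR-27a at 0.19 and miR-744 at 0.21. miR-219b-3p had 9283 CPM in ventral and 10506 in dorsal control, and 12604 in ventral and 7976 in dorsal iron hippocampus, so it was highest where miR-7 was lowest. miR-338, which like miR-219 is turned on as oligodendrocytes mature, had 979, 996, 1302 and 836 CPM in that order.

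**Figure D4:**
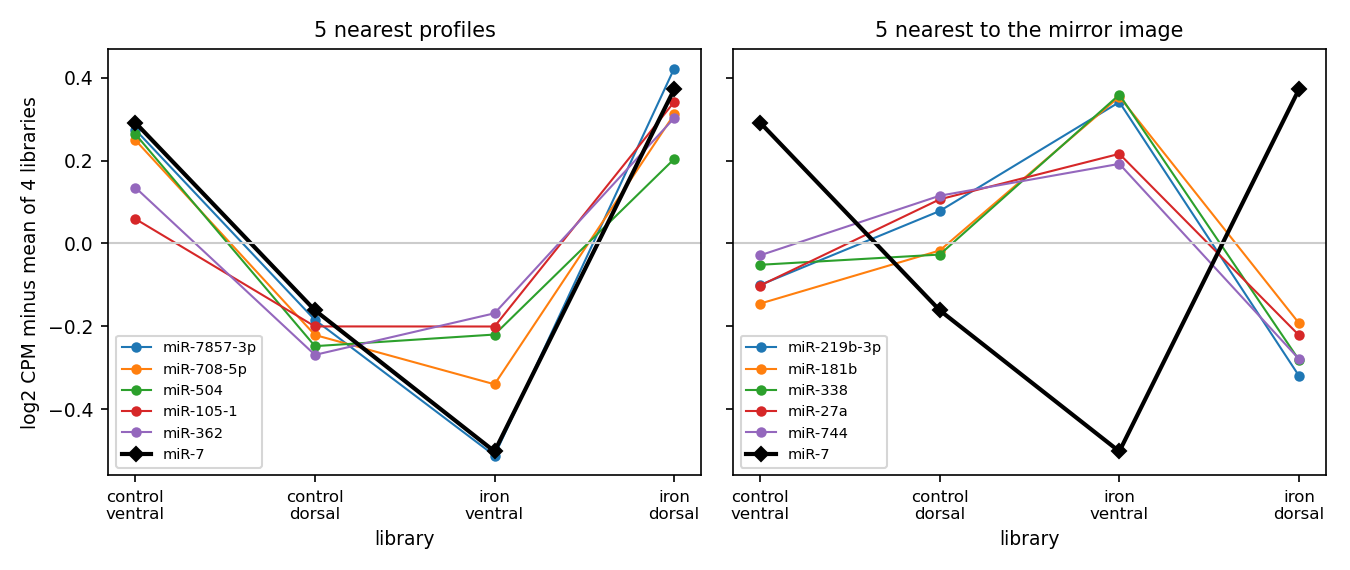
Log2 CPM of each miRNA minus its mean over the 4 libraries, for miR-7 (black) with its 5 nearest miRNAs and with the 5 nearest to its mirror image. miR-7857-3p lies on the line of miR-7 within 0.029 (root mean square), and miR-219b-3p runs opposite with its peak in iron ventral.

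Members of the miR-7 network and markers of brain cell types were read from lists chosen with earlier results known. Counts are of members at 1.5-fold with an interval excluding 1, against the background of all measured miRNAs. That background was 1.59% higher and 3.98% lower with iron in the ventral hippocampus, and 3.59% higher and 5.98% lower in the dorsal hippocampus. For dorsal against ventral it was 3.19% higher and 3.59% lower in control piglets, and 2.39% higher and 5.98% lower in iron piglets. miR-671, which directs the cutting of CDR1as, was low: its 5p strand had 10.24 to 14.1 CPM and its 3p strand 16.5 to 22.1 CPM, and 0 of 2 were counted in any comparison. Of miRNAs reported to act on alpha-synuclein together with miR-7, miR-153 had 2021 CPM in ventral and 1244 in dorsal control, and 1376 in ventral and 1257 in dorsal iron hippocampus. miR-34c had 9409, 6910, 7028 and 4194 CPM in that order. Both were highest in control ventral but neither was high in iron dorsal. In the dorsal iron comparison 1 of the 2, miR-34c, was counted, as lower. Dorsal against ventral counted miR-153 as lower in control and miR-34c as lower in iron piglets. The names listed for KEAP1 and NRF2, miR-200a and miR-141, matched 0 annotated rows.

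Neuron-enriched miRNAs were not, as a list, in the order of miR-7. All 12 members were measured, and they summed to 269559 CPM in ventral and 249869 in dorsal control, and 254837 in ventral and 239881 in dorsal iron hippocampus. The rows miR-129b and miR-129a-5p were not merged but had nearly equal levels in every library (1590 and 1588 CPM in control ventral). The count, the sum and the median may therefore hold the same reads more than once. In the iron comparisons 1 was counted in the ventral hippocampus, miR-129a-3p (184 CPM in control, 110 with iron), and 0 in the dorsal hippocampus. Dorsal against ventral counted miR-128 as higher and miR-153 as lower in control, and miR-212 as lower in iron piglets. Their median log2 ratio was 0.02 in the ventral and -0.22 in the dorsal hippocampus, where all measured miRNAs had medians of 0.00 and -0.02. miR-124a, the defining miRNA of neurons, had 40373 CPM in ventral and 40449 in dorsal control, and 41655 in ventral and 33450 in dorsal iron hippocampus. The merged row of miR-9, a miRNA of neural progenitors and neurons, had 202670, 176620, 184262 and 180323 CPM in that order. miR-128 had 11446, 17261, 14615 and 12740, and miR-218b had 3872, 4543, 3715 and 4412 CPM. The labelled brain tissue is thus borne out by high miR-9 and miR-124a in every library, and neither was lowest where miR-7 was lowest. In pooled tissue, fewer cells of a type and less RNA per cell cannot be told apart.

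Of the markers listed for hormone-secreting and sensory epithelium, 4 had an annotated row and 3 were measured. The names miR-375, miR-141 and those of miR-200 matched no annotated row. The 3 measured markers were high in a single library. miR-182, miR-183 and miR-96-5p, processed from a common transcript, summed to 453 CPM in ventral and 153 in dorsal control, and 127 in ventral and 138 in dorsal iron hippocampus. All 3 were lower by 1.5-fold or more with iron in the ventral hippocampus, with a median log2 ratio of -2.89, and 1 of 3 was in the dorsal hippocampus, also lower. Dorsal against ventral counted all 3 as lower in control piglets (median log2 ratio -2.56) and 0 of 3 in iron piglets. miR-429 was under the measuring limit (4.49 CPM in control ventral, 0.162 to 0.282 elsewhere). They shared with miR-7 the high control ventral library but not the high iron dorsal one, and their part in the ventral ratio of miR-7 was not tested.

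No counted member of the oligodendrocyte, astrocyte or immune lists moved in the direction of miR-7. The 2 measured oligodendrocyte miRNAs summed to 10263 CPM in ventral and 11502 in dorsal control, and 13906 in ventral and 8811 in dorsal iron hippocampus. Between the regions of iron piglets both were lower in the dorsal library, and in the iron comparisons 0 of 2 were counted. Opposite movement of these miRNAs went with the miR-7 levels in all libraries, and its part in them was not tested. Of the 6 astrocyte members 0 were counted in all 4 comparisons, and miR-26a, the most abundant, had 26521 to 30988 CPM. Of the 6 microglial and immune members 1 was counted in each iron comparison. These were miR-146b in the ventral hippocampus, where it was higher (380 CPM in control, 875 with iron), and miR-142-3p in the dorsal hippocampus, where it was lower (85.9 CPM in control, 47.1 with iron). Dorsal against ventral counted miR-146b as higher in control and miR-142-3p as lower in iron piglets.

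Blood, vessel and ventricle markers did not have the order of miR-7. Of the 3 red-cell miRNAs 0 were counted in the iron comparisons, and miR-451, the most abundant, had 553 to 671 CPM. miR-144 was counted in control dorsal against ventral, as lower (355 CPM in ventral, 212 in dorsal). Of the 6 vascular members 0 were counted in the iron comparisons and 2 in control dorsal against ventral, as higher: miR-143-3p (9720 CPM in ventral, 14800 in dorsal) and miR-143-5p (40.4 and 61.0). miR-204 of the choroid plexus, the tissue that secretes cerebrospinal fluid, had 253 CPM in ventral and 199 in dorsal control, and 178 in ventral and 164 in dorsal iron hippocampus, and was counted in no comparison. miR-34c, which also marks ciliated ependymal cells lining the ventricles, was lowest in iron dorsal, where miR-7 was high.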

How the data were processed

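Members and lists were chosen with earlier results of these data known. The authors trimmed reads with cutadapt 1.2.2 and used the builds Sscrofa 10.2 and susScr 3, per the submitters' processing notes. The aligner, the counting method and the rule for dividing reads were not given in the sources used here. As deposited by the authors, values were estimated counts (reads, many of them fractions), with 75.8% to 77.0% of cells in the annotated table exactly whole (tolerance 0), and RPM values, both named in the deposited file headers. Per-sample columns not used number 8, in the table of predicted miRNAs.

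Annotated rows of equal precursors whose reads lay within 0.1% were merged, which left 321 miRNAs. Reads were rounded and scaled with TMM (edgeR 4.0.16, R 4.3.3) to CPM. Libraries held 13839556, 12100980, 12299691 and 11396809 annotated reads (ventral and dorsal control, ventral and dorsal iron). Ratios carry exact conditional binomial (Clopper-Pearson) 95% intervals, levels exact Poisson and shares exact binomial intervals. Amplified reads are not independent molecules. The ratio script was tested on simulated counts. Conserved rows were scaled with TMM factors of their family sums. Named were miR-7 rows at 10 CPM or more, or the longest, shortest or with another first base; its neighbours by level; the 5 nearest and 5 opposite profiles; and up to 4 members of each list. miR-429, miR-129a-3p, miR-129a-5p, miR-129b, miR-212, miR-142-3p, miR-143-5p, mmu-miR-7a-2-3p and sme-miR-7d-5p were named after their values were seen. Alternatives were total-count, DESeq2 1.42.0 and RPM scaling, other filters, unmerged rows and the conserved table.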

Additional observations from a re-analysis of the deposited data

Results flagged for a closer look

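miR-7 was lower with iron in ventral and higher in dorsal hippocampus, the values it was chosen by, with log2 ratios 1.33 apart (-0.79 and 0.53). The directions were likewise opposite for miR-708-5p, 1.12 apart (-0.59 and 0.53), and miR-7857-3p, 1.39 apart (-0.79 and 0.61), which were named for profiles like that of miR-7. It held for the 5p arm of miR-7 in the conserved table, 1.38 apart, for its rows of 21 to 23 bases, 1.93 apart, and for its rows of 24 or 25 bases, 1.13 apart; these draw on the same reads. With 1 library a group none of these differences was tested.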

How the results depend on the processing

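The direction of miR-7 was the same in all 4 comparisons under each of the 7 alternatives of scaling, merging, table and sequence. Log2 ratios are given in the order iron ventral, iron dorsal, dorsal against ventral in control, the same in iron, and the difference between regions. They were -0.86, 0.41, -0.49, 0.77 and 1.26 with total counts, and -0.77, 0.54, -0.44, 0.88 and 1.31 with DESeq2 size factors. They were -0.79, 0.43, -0.42, 0.80 and 1.22 with the authors' RPM, -0.89, 0.42, -0.51, 0.80 and 1.32 with the total without miR-7, and -0.82, 0.55, -0.52, 0.85 and 1.37 without merging. In the conserved table they were -0.79, 0.59, -0.49, 0.89 and 1.38 for the family, and -0.91, 1.06, -0.83, 1.14 and 1.97 for its row with the highest mean, which 4 rows exceed in control dorsal. Both conserved values put the dorsal iron ratio past 1.5-fold, where the annotated row is not. Total counts shifted all annotated log2 ratios by -0.13 in the dorsal iron comparison and by -0.10 between the regions of iron piglets. In the dorsal iron comparison the RPM and the total without miR-7 each shifted them by -0.11, so miR-7 kept its distance from other miRNAs.

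Iron dorsal against control ventral (0.08) reversed with total counts (-0.084) and with the total without miR-7 (-0.089), and was 0.10 with DESeq2, 0.0051 with RPM, 0.031 without merging and 0.10 in the conserved table, alternatives chosen after seeing the data. The count of miRNAs at 1.5-fold in the dorsal iron comparison fell from 24 to 14 with a minimum of 100 CPM, which tests fewer miRNAs. In control dorsal against ventral it went from 17 to 26 with no filter and to 10 with that minimum. Alternatives for the 3p arm and the arm ratio, also added after seeing the data, kept direction and lay within the counting intervals of the main values. The iron log2 ratio of the 3p arm ran from 0.043 to 0.14 in the ventral hippocampus. In the dorsal hippocampus it ran from -0.78 to -0.65. Of the 5 nearest miRNAs, 4 were shared when ranked by largest difference and 5 with total counts. A count of 0 allows up to 3 reads, so the rows of few reads cannot be told from 0. No paired analysis was possible because each group is 1 library.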
